A study of Mus musculus with 9 samples.

Results

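The 10 genes described here were Stab2, Stab1, Pecam1, Cdh5, Kdr, Flt1, Tek, Tie1, Eng and Vegfa, out of 14300 protein-coding genes listed in both deposited tables of mouse tibialis anterior, a shin muscle. Stab2 was chosen because its level was higher after dihydrotestosterone (DHT, a potent androgen), and the other 9 because they encode receptors, junction proteins or growth factors of blood vessels. All 10 were found by symbol in both tables. RNA came from males of the C57BL/6J strain, 4 weeks after treatment, with 3 libraries from each of 3 groups: controls, castrated animals (ORX, for orchiectomy) and castrated animals that received DHT (ORX+DHT). The labels call the libraries biological replicates and give no allele, age, dose or route. The tables name the control columns sham.

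Blood vessels are lined by endothelial cells, which in muscle form a dense capillary bed around the fibres. Muscle fibres make vascular endothelial growth factor A (Vegfa), which acts on endothelial cells through the receptor kinases Kdr and Flt1, while the angiopoietin receptor Tek and its partner Tie1 keep mature vessels stable. Stab2 and Stab1 are large paralogous scavenger receptors, best known from the sinusoidal endothelium of liver, spleen and lymph node, where Stab2 clears hyaluronan from the circulation. Stab1 is also made by some macrophages.

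Levels are normalised counts, that is, reads of a gene divided by a scaling factor of its library, on 1 scale for all 9 libraries. Each library held between 1340209 and 1682235 recovered reads. Control replicate 1 stood apart from the other 8 libraries on the first principal component of 8631 genes (score -47.2 against 0.716 to 10.6), so values against control are also given without it. Muscle fibre transcripts dominated every library, with 8 fibre genes summing to 216671 to 337196 normalised counts, and all 30 genes of a list of endothelial markers were listed in both tables. In whole muscle, fewer cells of a type and less RNA per cell cannot be told apart.

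Stab2 (ENSMUSG00000035459) lies on chromosome 10 at 86841198 to 87008025 on the minus strand of GRCm38. Its level was 17.5, 21.0 and 14.9 normalised counts in control replicates 1, 2 and 3, then 13.7, 10.2 and 10.8 after orchiectomy, and 49.7, 48.3 and 57.3 when DHT was given as well. The ORX+DHT libraries were all above the other 6. The ORX libraries were all below the controls, but only narrowly for ORX replicate 1 (13.7) and control replicate 3 (14.9). Those libraries held 14 and 15 reads of Stab2. Among all genes tested between ORX and control, 14.3% had groups that did not overlap. The Stab2 levels rest on 48 reads summed over the controls, 39 over ORX and 157 over ORX+DHT libraries. Stab2 averaged 51.8 ± 4.84 in ORX+DHT, 11.6 ± 1.89 in ORX and 17.8 ± 3.07 in control muscle (SD, n = 3).

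On the log2(value + 1) scale, the difference of Stab2 was 2.08 for ORX+DHT against ORX (4.23-fold, limma 95% interval 3.08 to 5.80), larger than that of 99.9% of genes tested. Since Stab2 was chosen on this difference and the other comparisons share libraries with it, its values are a description and no test is given. Its intervals and its place among all genes do not allow for that choice. The log2 difference was 1.498 for ORX+DHT against control and -0.58 for ORX against control (1.49 and -0.58 without control replicate 1). For ORX against control the fold was 0.67, with a limma 95% interval of 0.43 to 1.03 that spans no change. Of the exonic bases of Stab2, 1.61% (141 bases) overlap the antisense gene Gm16268, and whether counting used strand is not given in the sources used here, so reads from these bases cannot be assigned to 1 of the pair. No stretch of 50 bases of the longest coding Stab2 transcript, nor of Stab1, occurred in a transcript of another gene of GENCODE release M21, so the paralogues did not share such stretches.

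**Figure D1:**
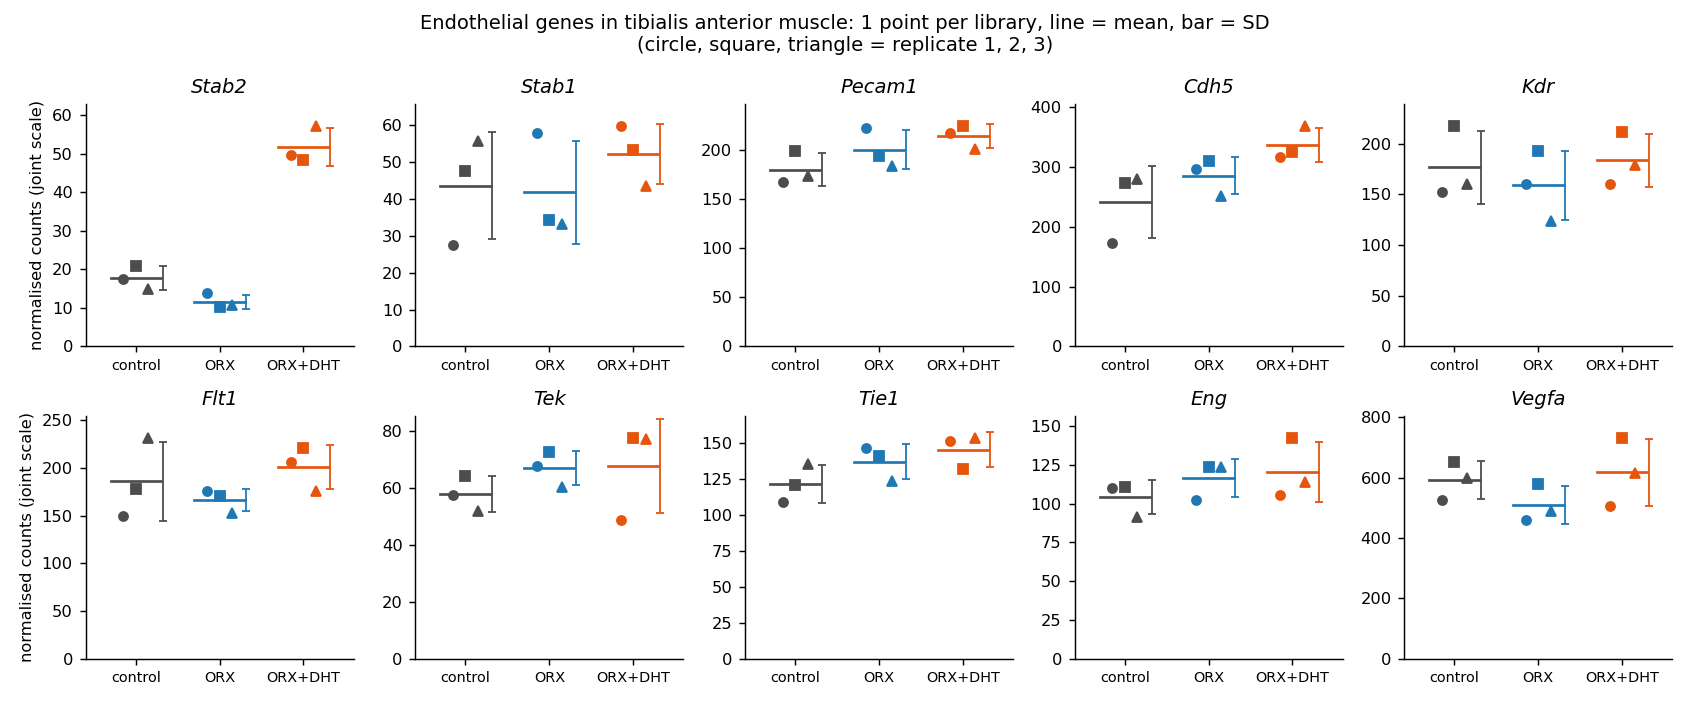
Normalised counts (vertical axes, joint scale) of the 10 genes in control, ORX and ORX+DHT muscle (horizontal axes); each point is a library, with its shape giving the replicate, each line a group mean and each bar the SD of 3 libraries. The ORX+DHT libraries of Stab2 sit between 48.3 and 57.3, above the 6 others at 10.2 to 21.0, while the groups of the other 9 genes lie close together.

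To place the levels beside each other, counts were divided by the exonic length of each gene. In control muscle Vegfa was highest, at 138 ± 14.6 normalised counts per kb (SD, n = 3), followed by Cdh5 at 57.5 ± 14.3. Pecam1, Eng and Tie1 followed at 28.9 ± 2.72, 25.7 ± 2.69 and 24.7 ± 2.69 per kb, then Kdr at 19.6 ± 3.97, Flt1 at 13.8 ± 3.07 and Tek at 12.3 ± 1.33. From Pecam1 to Tek, the ranges of neighbours in this order overlapped. Stab1, at 4.23 ± 1.41 per kb, was below all of these, and Stab2, at 2.03 ± 0.35, was the lowest of the 10 with no overlap with Stab1. In ORX+DHT muscle Stab2 stood at 5.91 ± 0.55 per kb, and its range (5.52 to 6.54) overlapped that of Stab1 (4.23 to 5.81).

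Promoter sequences were taken from the RefSeq table for GRCm38.p6, which held 8 of the 10 genes, all but Pecam1 and Cdh5, in windows from 250 bases before to 50 after the RefSeq start. Those of Stab2, of its paralogue Stab1, of Tek, which carries the only androgen receptor half-site match among the 8 genes, and of Spns2, whose pattern was most like that of Stab2, are shown. They lie at chr10:87007893-87008192 (minus strand), chr14:31168592-31168891 (minus), chr4:94739039-94739338 (plus) and chr11:72474978-72475277 (minus). Capitals mark GGAA or its reverse complement TTCC, the core bound by ETS factors, and the half-site AGAACA or its reverse complement TGTTCT.
Stab2: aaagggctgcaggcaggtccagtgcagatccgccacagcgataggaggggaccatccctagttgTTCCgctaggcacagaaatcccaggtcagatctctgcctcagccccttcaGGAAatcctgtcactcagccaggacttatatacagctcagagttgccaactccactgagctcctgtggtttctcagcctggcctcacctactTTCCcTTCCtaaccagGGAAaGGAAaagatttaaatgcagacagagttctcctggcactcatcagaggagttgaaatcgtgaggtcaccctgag
Stab1: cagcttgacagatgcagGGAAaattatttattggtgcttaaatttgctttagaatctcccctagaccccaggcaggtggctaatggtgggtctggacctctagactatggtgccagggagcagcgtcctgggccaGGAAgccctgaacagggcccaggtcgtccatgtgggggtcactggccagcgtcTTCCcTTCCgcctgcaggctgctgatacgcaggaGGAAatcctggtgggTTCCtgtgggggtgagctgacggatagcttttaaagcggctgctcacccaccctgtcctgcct
Tek: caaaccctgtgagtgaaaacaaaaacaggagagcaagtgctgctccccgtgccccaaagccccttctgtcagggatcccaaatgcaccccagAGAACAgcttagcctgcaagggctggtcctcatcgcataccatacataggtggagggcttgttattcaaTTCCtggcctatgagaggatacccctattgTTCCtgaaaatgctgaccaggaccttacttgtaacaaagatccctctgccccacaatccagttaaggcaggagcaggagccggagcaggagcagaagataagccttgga
Spns2: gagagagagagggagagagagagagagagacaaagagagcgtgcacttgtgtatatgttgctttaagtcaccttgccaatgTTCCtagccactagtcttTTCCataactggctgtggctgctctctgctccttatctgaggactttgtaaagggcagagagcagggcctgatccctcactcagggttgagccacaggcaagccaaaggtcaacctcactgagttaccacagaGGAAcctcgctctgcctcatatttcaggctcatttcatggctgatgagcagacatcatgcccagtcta
The Stab2 window held 6 matches to GGAA on either strand, 4 of them starting 44 to 23 bases before the RefSeq start, and no match to AGAACA. The GENCODE span of Stab2 given above begins further upstream than the RefSeq start, so these 4 matches lie inside that span. Stab1 held 6, Tek 2 and Spns2 3. GGAA occurred in 96.0% of all 32851 promoter windows and AGAACA in 19.0%. The full site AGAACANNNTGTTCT, which contains the half-site, occurred in 3 windows and in none of the 8 genes. A match describes letters, not a bound site, and no match concerns this window alone.

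Do the other vascular genes follow Stab2 after DHT? In ORX+DHT against ORX, 0 of the other 9 genes were called at an adjusted p under 0.05 (limma, Benjamini-Hochberg over 8770 genes), where 4.08% of all genes tested were called. An unadjusted p under 0.05 was found for 3 of the 9 (Flt1, Cdh5 and Vegfa), against 14.3% of all genes. On recovered reads, edgeR called 0 with 3 at an unadjusted p under 0.05, and DESeq2 called 0 with 0. The count at an unadjusted p under 0.05 was also 0 without ORX replicate 3 and with all 9 libraries in 1 fit, 1 after quantile normalisation or without ORX+DHT replicate 2 or 3, 2 without ORX+DHT replicate 1 and 4 without ORX replicate 2. The log2 difference was above 0 for 8 of the 9, with a median of 0.22 beside 0.0062 for all genes, of which 50.8% were above 0. Groups did not overlap for 2 of the 9 (Cdh5 and Flt1), against 19.5% of all genes. In the main limma fit, the upper 95% bound of the fold was at most 1.73 (Stab1) and lay under 1.5 for 8 of the 9. Each interval is for 1 gene in that fit, so together they are no joint bound.

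Among the scavenger receptors, Stab1 (chromosome 14, 31139013 to 31168641, minus strand) was measured at 57.9, 34.1 and 33.1 normalised counts in ORX replicates 1, 2 and 3 and at 59.8, 53.2 and 43.5 in ORX+DHT replicates. The groups overlapped through ORX replicate 1. The fold was 1.28 (95% interval 0.94 to 1.73, limma adjusted p 0.482). Without ORX replicate 1 the log2 difference of Stab1 was 0.61 instead of 0.35 (limma adjusted p 0.117). In controls Stab1 ranged from 27.5 in replicate 1 to 55.6 in replicate 3. Stab1 shares 1.09% of its exonic bases with Nt5dc2 on the other strand.

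Pecam1 and Cdh5 encode adhesion proteins of endothelial junctions, Cdh5 being the cadherin that seals them. Pecam1 (chromosome 11, 106654217 to 106750628, minus strand) was measured at 167, 199 and 173 normalised counts in controls, 222, 194 and 184 after orchiectomy, and 217, 224 and 201 with DHT. Its ORX and ORX+DHT libraries overlapped, with a fold of 1.07 (95% interval 0.92 to 1.25, limma adjusted p 0.729). Cdh5 (chromosome 8, 104101625 to 104144511, plus strand) stood at 172, 273 and 280 in controls, 295, 310 and 251 after orchiectomy, and 316, 324 and 369 with DHT. All 3 ORX+DHT libraries were above every other library, but the fold over ORX was 1.18 (95% interval 1.02 to 1.37) and did not pass (limma adjusted p 0.28).

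The VEGF receptors were Kdr and Flt1. Kdr, the main signalling receptor (chromosome 5, 75932827 to 75978458, minus strand), was measured at 152, 218 and 160 normalised counts in controls, 160, 193 and 124 after orchiectomy, and 160, 212 and 179 with DHT. Flt1, which binds VEGF tightly and can act as a decoy (chromosome 5, 147561604 to 147726011, minus strand), was measured at 150, 178 and 231 in controls, 176, 171 and 153 after orchiectomy, and 207, 221 and 176 with DHT. The Kdr groups overlapped, and the ORX+DHT libraries of Flt1 were just above those of ORX (175.9 against 175.7 for the closest pair) but within the range of controls. Neither passed in ORX+DHT against ORX, with folds of 1.17 for Kdr and 1.21 for Flt1 (limma adjusted p 0.533 and 0.259).

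Vegfa, the ligand (chromosome 17, 46016993 to 46032369, minus strand), was measured at 527, 651 and 600 normalised counts in controls, 460, 578 and 489 after orchiectomy, and 507, 731 and 615 with DHT. Groups overlapped in each comparison, and the fold in ORX+DHT against ORX was 1.21 (95% interval 1.02 to 1.43, limma adjusted p 0.294).

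Tek is the angiopoietin receptor and Tie1 its partner. Tek (chromosome 4, 94739289 to 94874976, plus strand) was at 57.4, 64.1 and 51.6 normalised counts in controls, 67.7, 72.5 and 60.4 after orchiectomy, and 48.6, 77.3 and 77.1 with DHT. ORX+DHT replicate 1 was the lowest of the 9 libraries and the other ORX+DHT replicates the highest. Tie1 (chromosome 4, 118471191 to 118490061, minus strand) was at 109, 121 and 135 in controls, 146, 141 and 123 after orchiectomy, and 151, 131 and 153 with DHT. Their folds in ORX+DHT against ORX were 0.99 and 1.06 (limma adjusted p 0.99 and 0.799).

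Eng encodes endoglin, a co-receptor for BMP and TGF-beta ligands on endothelial cells, and lies on chromosome 2, 32646595 to 32682669, plus strand. Its level was 110, 111 and 91.4 normalised counts in controls, 102, 124 and 123 after orchiectomy, and 105, 142 and 114 with DHT, with overlap between the groups. The fold in ORX+DHT against ORX was 1.03 (95% interval 0.85 to 1.25, limma adjusted p 0.93). Fpgs on the other strand overlaps 1.51% of its exonic bases.

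Stab2 was also read against endothelial transcripts. The 8 endothelial genes other than Stab2 (Vegfa left out) summed to 945, 1211 and 1178 normalised counts in controls, 1227, 1238 and 1051 after orchiectomy, and 1265, 1385 and 1311 with DHT. The 3 ORX+DHT sums were the highest of the 9 libraries. As a share of this sum, Stab2 was 1.85%, 1.74% and 1.26% in controls, 1.12%, 0.827% and 1.02% after orchiectomy, and 3.93%, 3.49% and 4.37% with DHT. The log2 difference of the share was 1.99 for ORX+DHT against ORX, and 1.98 with Pecam1 plus Cdh5 as the denominator. It was taken without a pseudocount, so it is not on the scale of the 2.08 for Stab2 alone. With a pseudocount of 0.1, Stab2 alone was at 2.16. For ORX+DHT against control the log2 difference of the share was 1.29, or 1.15 with Pecam1 plus Cdh5. Stab2 alone was at 1.498 there on the log2(value + 1) scale. For ORX against control that of the share was -0.70, or -0.83 with Pecam1 plus Cdh5. Stab2 alone was at -0.58 there, or -0.615 with a pseudocount of 0.1. Genes differ in length, so the share is not one of molecules.

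**Figure D2:**
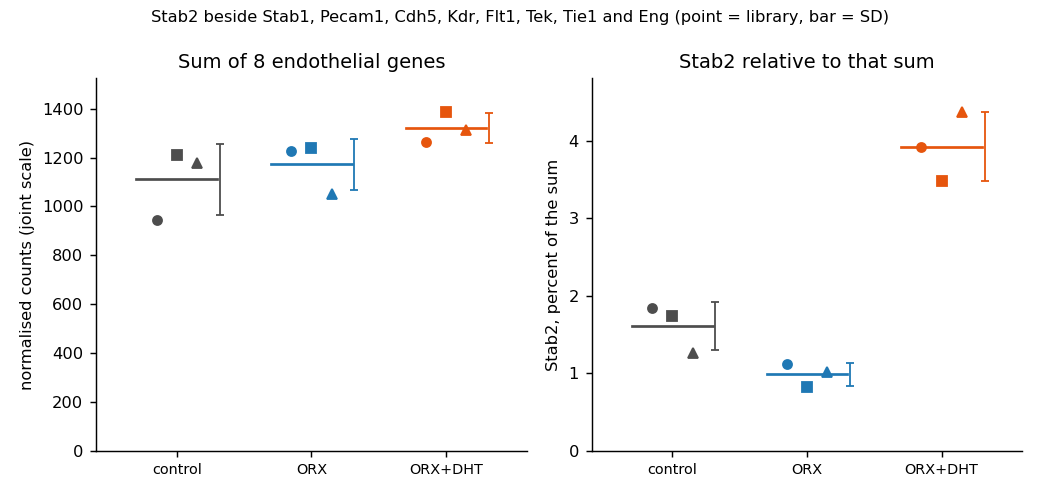
Left, summed normalised counts (joint scale) of Stab1, Pecam1, Cdh5, Kdr, Flt1, Tek, Tie1 and Eng; right, Stab2 in percent of that sum, in control, ORX and ORX+DHT muscle (point, library; line, mean; bar, SD of 3 libraries). The share sits between 3.49% and 4.37% in ORX+DHT libraries and between 0.827% and 1.85% in the 6 others.

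The question whether orchiectomy alone altered these genes was asked in ORX against control. None of the 9 was called (0 of 9, limma, over 8631 genes, of which 0.0579% were called), 0 had an unadjusted p under 0.05, and both edgeR and DESeq2 gave 0 and 0. Folds ran from 0.86 for Vegfa to 1.20 for Cdh5, with adjusted p of 0.765 to 0.981, and 5 of the 9 were above 1. Of all genes, 7.21% had an unadjusted p under 0.05, and 48.9% were higher in ORX. The groups overlapped for all 9, while 14.3% of all genes had groups that did not. The highest upper 95% bound was 1.62 (Cdh5). Without control replicate 1, 2 of the 9 had an unadjusted p under 0.05 and 0 were called, and the log2 difference of Cdh5 was 0.038 instead of 0.26. In that replicate Stab1, Pecam1, Cdh5, Flt1 and Tie1 were each at their lowest level of the 9 libraries.

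Muscle given DHT was also set against control muscle, on the joint scale. None of the 9 was called (0 of 9, limma, over 8595 genes, of which 0.0349% were called), 1 had an unadjusted p under 0.05 (Cdh5), and edgeR and DESeq2 each called 0 with 1 at an unadjusted p under 0.05. All 9 folds were above 1, from 1.03 for Vegfa to 1.42 for Cdh5, with a median log2 difference of 0.20 beside -0.0051 for all genes, and 6 were above 1 without control replicate 1. Cdh5 had a 95% interval of 1.06 to 1.90 and a limma adjusted p of 0.736, and its log2 difference was 0.50 with and 0.28 without control replicate 1. Without ORX+DHT replicate 3, 0 of the 9 had an unadjusted p under 0.05. The groups did not overlap for Cdh5 and Pecam1, which is 2 of 9, where 14% of all genes did not. Of all genes, 6.48% had an unadjusted p under 0.05 and 49.3% a log2 difference above 0. Both comparisons with ORX+DHT use the same ORX+DHT libraries.

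**Figure D3:**
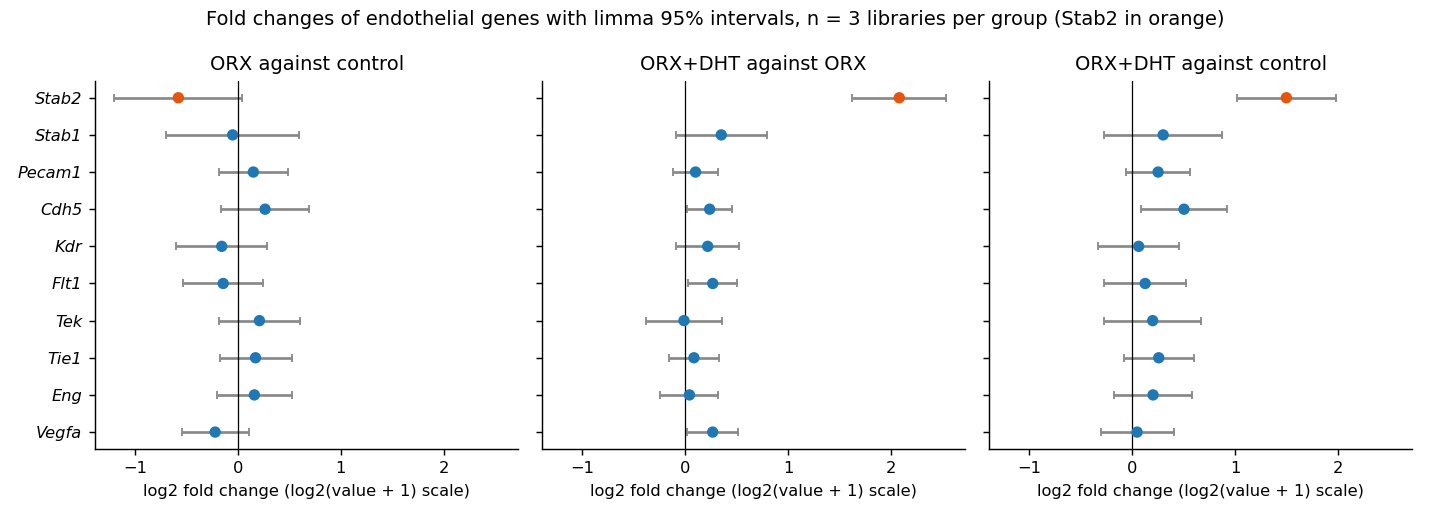
Log2 differences (horizontal axes, on the log2(value + 1) scale) of the 10 genes in the 3 comparisons, with limma 95% intervals as bars, from 3 libraries per group; Stab2, in orange, was chosen for its difference in the middle panel. The intervals of Stab2 do not allow for that choice. The 9 other genes (blue) lie between -0.010 and 0.35 in ORX+DHT against ORX.

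Further genes of the vascular pathways were grouped in lists. Among all 8770 genes tested in ORX+DHT against ORX, 4.08% were called, 14.3% had an unadjusted p under 0.05 and 50.8% had a log2 difference above 0. Of 30 endothelial markers, 29 were tested in ORX+DHT against ORX, 21 were higher and 8 lower, 0 were called (limma) and 7 had an unadjusted p under 0.05. Their median log2 difference was 0.17, from -0.90 for Cldn5 to 0.63 for Cyyr1, and the lowest adjusted p was 0.0606. The summed level of the markers was 1721 to 1944 normalised counts in controls, 1829 to 1866 after orchiectomy and 1980 to 2098 with DHT. Of 10 genes of the VEGF family (Vegfc, Vegfd and Pgf were below the minimum level), 7 were tested, 7 were higher and 0 were called (limma), with 3 at an unadjusted p under 0.05 and a median of 0.27. That list includes Kdr, Flt1 and Vegfa. Of 6 angiopoietin and TIE genes 4 were tested, 2 were higher and 2 lower, 0 were called (limma), 0 had an unadjusted p under 0.05, and the median was 0.038.

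Endoglin acts in BMP signalling, whose list had 10 of 12 genes tested in ORX+DHT against ORX, with 4 higher, 6 lower, 0 called (limma), 2 at an unadjusted p under 0.05 and a median of -0.16. Of 9 Notch pathway genes, which guide vessel branching, 7 were tested, 6 were higher and 0 were called (limma), with 2 at an unadjusted p under 0.05 and a median of 0.24. In the list of hypoxia response genes and regulators, 9 of 10 were tested, 4 were higher and 5 lower, 3 had an unadjusted p under 0.05, the median was -0.075 and 1 was called, Ppargc1a, a coactivator of mitochondrial genes that can also induce Vegfa. It rose from 66.7, 78.5 and 61.2 normalised counts in ORX to 107, 106 and 98.8 in ORX+DHT muscle, with no overlap (log2 difference 0.60, SE 0.13, limma adjusted p 0.013). Beside these BMP, Notch and hypoxia counts, the all-gene shares of the same comparison were 4.08% called, 14.3% at an unadjusted p under 0.05 and 50.8% above 0. Control levels of Ppargc1a ranged from 42.5 in replicate 1 to 105 in replicate 3. Against control muscle, neither ORX nor ORX+DHT gave a call in any of these 6 lists (0 genes by limma, with at most 2 per list at an unadjusted p under 0.05). The all-gene shares of these comparisons were 0.0579% and 0.0349% called, and 7.21% and 6.48% at an unadjusted p under 0.05. The absence of calls in the lists is thus near the share over all genes.

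Markers of sinusoidal and scavenger endothelium, where Stab2 is best known, were scarce. Of 10 such genes 8 were listed in both tables, and 7 of the 8 had a mean under 10 normalised counts. Lyve1, another hyaluronan receptor, had 7 reads over the controls, 15 over ORX and 13 over ORX+DHT libraries. Wnt2, Cd209b and Dnase1l3 were each at 0 in 6 or 7 of the 9 libraries. Mrc1, the mannose receptor shared with macrophages, was the 1 gene tested and was not called in ORX+DHT against ORX (log2 difference -0.41, limma adjusted p 0.464). The summed level of the list was 24.3 to 38.7 in controls, 38.4 to 46.1 after orchiectomy and 31.4 to 38.5 with DHT. The ORX+DHT sums thus did not stand above the others as the levels of Stab2 did. Mrc1 was the largest part of the sum in each library. Its level was 13.3 to 20.9 in controls, 20.5 to 31.4 after orchiectomy and 17.4 to 19.8 with DHT. The contrast with Stab2 therefore rests mostly on 1 gene that macrophages share, and the sum without Mrc1 was not tested. Of 7 lymphatic markers, 6 were listed in both tables and 5 of these had a mean under 10. The 1 tested, Flt4, was not called in ORX+DHT against ORX (log2 difference 0.48, limma adjusted p 0.49). Against control its fold was 1.95 (95% interval 1.03 to 3.70, limma adjusted p 0.736). Those groups did not overlap, as for 14% of all genes. Flt4 reached the minimum mean of 10 in that comparison only through the ORX+DHT libraries (control mean 9.64), so these values are set in part by the filter. The lymphatic list summed to 20.0 to 30.8 in controls, 35.0 to 40.5 after orchiectomy and 36.5 to 48.4 with DHT.

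Markers of other cell types were compared in ORX+DHT against ORX as well, where of all genes 4.08% were called, 14.3% had an unadjusted p under 0.05 and 50.8% had a log2 difference above 0. The 13 macrophage markers summed to 64.1 to 122 normalised counts in controls, 66.5 to 149 after orchiectomy and 119 to 159 with DHT, and 6 of 6 tested were higher in ORX+DHT than in ORX, with a median log2 difference of 0.40, 0 called (limma) and 1 at an unadjusted p under 0.05. That gene was Cd163, a scavenger receptor of macrophages, at 3.75, 5.53 and 7.95 normalised counts in controls, 8.83, 1.71 and 19.0 after orchiectomy, and 14.2, 16.4 and 27.7 with DHT. Its ORX+DHT libraries overlapped those of ORX but not the controls, with folds of 2.44 over ORX and 3.01 over control (limma adjusted p 0.241 and 0.411). Against control, too, 6 of 6 macrophage markers tested were higher, with a median of 0.54. Cd163 and C1qb reached the minimum mean of 10 there only through the ORX+DHT libraries (control means 5.74 and 8.98). F13a1 did so against ORX (ORX mean 8.43). Both counts of higher macrophage markers were thus set in part by the filter. Below the minimum level, Adgre1 and Ptprc ran from 1.01 to 7.44 and from 0.853 to 4.97 over the 9 libraries. Adgre1 averaged 5.82 in ORX and 2.96 in ORX+DHT, and Cd68 4.25 and 2.30. C1qc, also untested, was higher with DHT, at 7.31 and 8.58. Pericyte and smooth muscle markers summed to 1388 to 1808, 1680 to 1710 and 1817 to 1901 in the 3 groups, with 6 of 8 tested higher in ORX+DHT than in ORX, a median of 0.19 and 0 called (limma, 3 at an unadjusted p under 0.05). Haemoglobin genes and Alas2, as a sign of blood, summed to 146 to 248 in controls, 87.8 to 252 after orchiectomy and 184 to 211 with DHT, with 4 of 4 tested higher in ORX+DHT than in ORX, a median of 0.47 and 0 called (limma, 0 at an unadjusted p under 0.05). Among 7 fibroblast and adipocyte genes, 2 of 5 tested fell in ORX+DHT against ORX: Lum, a matrix proteoglycan, from 104 ± 13.4 to 29.9 ± 7.50, and Col1a1, a collagen chain, from 1682 ± 176 to 750.4 ± 145 (limma adjusted p 4.81e-06 and 2.89e-06). Of the 5 tested, 1 was higher, and the median was -0.46. The 7 genes summed to 1354 to 2729 in controls, 2883 to 3860 after orchiectomy and 1702 to 2405 with DHT. Of 8 fibre genes 3 rose, Acta1, Myh1 and Tnni2, with log2 differences of 0.47, 0.47 and 0.39 (limma adjusted p 0.00357, 0.00755 and 0.0103). Of the 8, 7 were higher, with a median of 0.22. The part of these markers in the level of Stab2 was not tested.

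**Figure D4:**
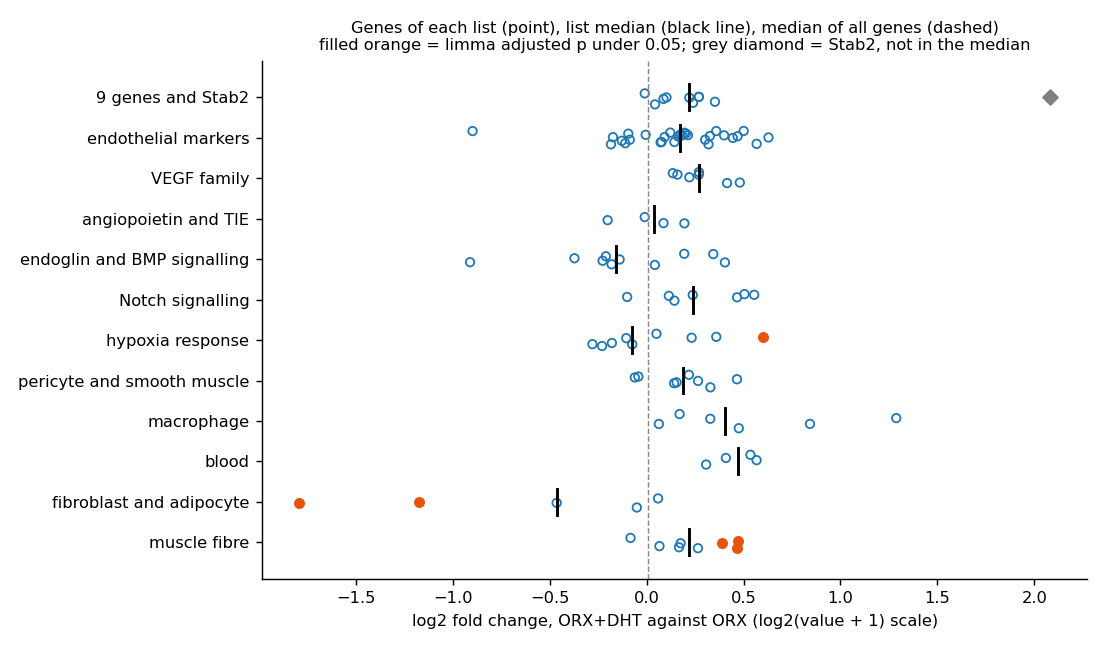
Log2 differences for ORX+DHT against ORX (horizontal axis, log2(value + 1) scale) of the tested genes of 12 gene lists (rows); each circle is a gene, filled where its limma adjusted p was under 0.05, each black line the list median, and the dashed line the median of all genes. Stab2 (grey diamond, 2.08, not in the median of its row) was chosen for this difference. The 9 other genes have a median of 0.22, and the 29 endothelial markers run from -0.90 to 0.63.

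To describe which genes had a pattern like that of Stab2, Pearson's r of log2 values with Stab2 over the 9 libraries was ranked over 8630 genes. The points share their groups and the library scaling, and the DHT difference that chose Stab2 sets the ranking, so no p is given. The 5 closest were Spns2 (r 0.97), Serinc3 (0.96), C7 (0.96), Sbk2 (0.95) and Il1r1 (0.95). Spns2, the exporter of sphingosine-1-phosphate, which endothelial cells use, stood at 76.2 ± 15.3 normalised counts in controls, 51.3 ± 6.51 after orchiectomy and 217 ± 29.6 with DHT (SD, n = 3). C7, a complement component, stood at 2.72 ± 2.38, 0.887 ± 0.083 and 39.8 ± 24.7 in the same order, with ORX+DHT replicate 3 at 68.2 and the other ORX+DHT libraries at 23.3 and 28.04. C7 thus reached the minimum mean of 10 for this ranking only through the ORX+DHT libraries. Il1r1, the interleukin 1 receptor, was at 10.9 to 11.2 in controls, 9.10 to 11.1 after orchiectomy and 18.8 to 21.3 with DHT. Serinc3, a membrane protein, and Sbk2, a kinase, were at 771 ± 119 and 352 ± 11.8 in ORX+DHT against 357 ± 32.3 and 92.2 ± 17.0 in ORX muscle. By the same measure the other 9 genes of the set had r between 0.15 (Tek, rank 3184) and 0.51 (Pecam1, rank 875).

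**Figure D5:**
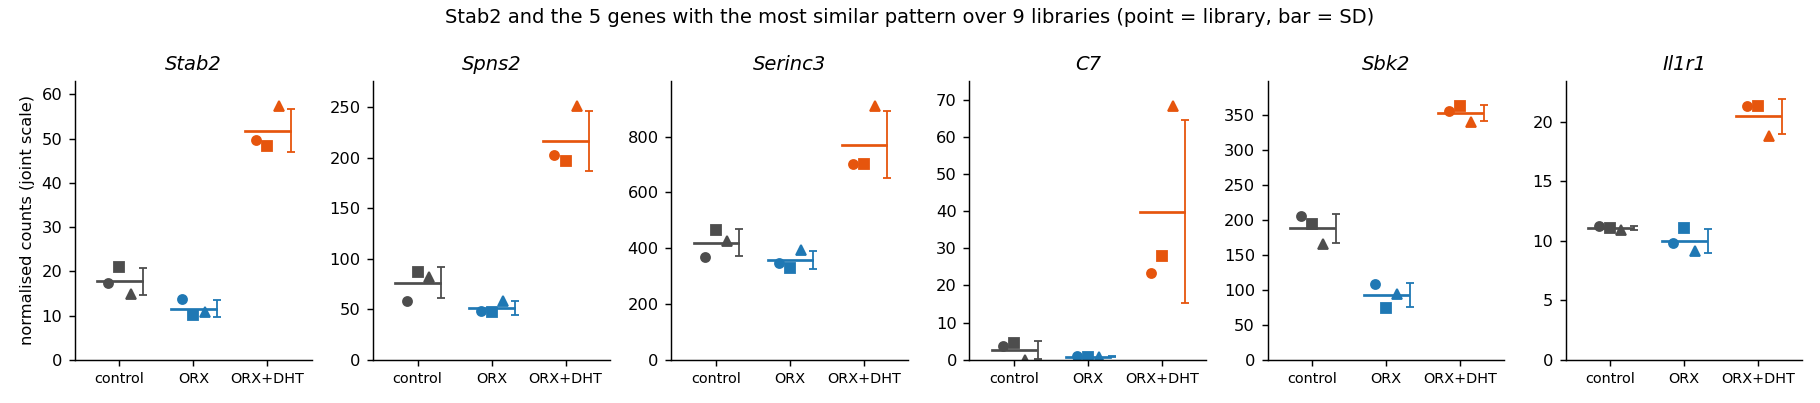
Normalised counts (vertical axes, joint scale) of Stab2 and of the 5 genes with the highest r with it over 9 libraries, in control, ORX and ORX+DHT muscle; each point is a library, each line a mean and each bar the SD of 3 libraries. In all 6 panels the 3 ORX+DHT libraries lie above the other 6, as the choice by likeness implies.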

How the data were processed

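Reads of polyA RNA from a directional library kit, per the labels' protocols, were measured in 9 libraries. The submitters' processing notes name Trim Galore 0.6.7, HISAT2 2.2.1, featureCounts 2.0.1, DESeq2 1.36.0 and GRCm38. The authors deposited 2 tables of normalised counts, a signal in which read counts are divided by 1 factor per library, separately per table. All columns were used (0 left unmapped). In each column 100% of values were whole multiples (tolerance 0.001) of 1 step, which gave the reads. For control replicate 3 the step was close to 1. The tables' ORX reads were identical, so 14300 shared genes were rescaled jointly by median-of-ratios factors for levels and for ORX+DHT against control.

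Each comparison was fitted with limma 3.58.1 (R 4.3.3, trended eBayes) on log2(value + 1) over genes averaging at least 10, across the whole table, with Benjamini-Hochberg adjustment and a threshold of 0.05. The log2(value + 1) scale understates changes of low genes such as Stab2. Count tests used edgeR 4.0.16 and DESeq2 1.42.0. Only a limma fit was tested on simulated counts, with changes larger than those of the genes other than Stab2. Neither edgeR, DESeq2 nor an outlying library was part of that simulation. Gene models are those of GENCODE release M21.

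Named were the 10 genes, genes of the lists that were called (at most 5 per list and comparison) and the 5 genes most like Stab2. List extremes, Lyve1, Flt4, macrophage markers near or below the minimum mean and markers near 0 were named after their values were seen. Genes and lists were chosen with earlier results of these data known, so no list was tested as such. Alternatives were another pseudocount, filter, scaling or tool, all libraries in 1 fit, a replicate block and each library left out. The protocols in the labels name no molecular identifiers, so read numbers speak for counting error alone.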

Additional observations from a re-analysis of the deposited data

How the results depend on the processing

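Across 16 alternatives per comparison, 0 of the 9 genes other than Stab2 were called in all 16 for both comparisons with control. In ORX+DHT against ORX it was 0 in 15, and 1 (Vegfa, limma adjusted p 0.0282) with the replicate block, which moved the calls over all genes from 358 to 571. Same-numbered ORX and ORX+DHT libraries had deviations correlated at 0.063, 0.061 and 0.15, above the differently numbered ones at -0.087 to 0.025. For control and ORX, same-numbered libraries were at -0.165, 0.06 and -0.106, and differently numbered ones at -0.163 to 0.195. For control and ORX+DHT, same-numbered libraries were at -0.0921, -0.000629 and -0.0888, and differently numbered ones at -0.0581 to 0.106. The labels state no pairing, so the main fits used none. Whether the samples were paired was not tested, and these correlations do not settle it. The block called 0 of the 9 in the other comparisons. The fits that left out 1 library each called 0 to 0 of the 9.

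Near-zero differences changed sign. In ORX+DHT against ORX, Tek was at 0.013 with edgeR and 0.012 with DESeq2 instead of -0.0099, and ran from -0.12 to 0.21 with 1 library left out, as Eng did from -0.081 to 0.13. With no change of sign, Kdr ran from 0.053 to 0.37, Vegfa from 0.14 to 0.40, Pecam1 from 0.043 to 0.18 and Tie1 from 0.013 to 0.16. In ORX against control these ranges were -0.34 to 0.15 for Stab1, -0.31 to 0.0088 for Kdr and -0.29 to 0.021 for Flt1. In ORX+DHT against control they were -0.043 to 0.22 for Kdr, -0.018 to 0.29 for Flt1 and -0.081 to 0.18 for Vegfa. Stab2 kept its direction in every fit: with 1 library left out it was 2.005 to 2.201 in ORX+DHT against ORX, and with a pseudocount of 10 it was 1.54, which shrinks low genes by construction. With a minimum mean of 50, Stab2 and Stab1 were not tested.

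The background of calls over all genes moved more. In ORX against control 5 genes were called, and 16 with no filter, 23 with all libraries in 1 fit, 28 with DESeq2 and 1 to 51 with 1 library left out (51 without control replicate 1, 21 without control replicate 3, and 1, 1 and 2 without ORX replicates 1, 2 and 3). In ORX+DHT against ORX 358 became 123 with all libraries in 1 fit, 221 with DESeq2 and 223 without ORX+DHT replicate 1. In ORX+DHT against control 3 became 6 after quantile normalisation, 11 with all libraries in 1 fit, 13 with DESeq2 and 0 to 66 with 1 library left out (66 without control replicate 1, 1 without control replicate 3 or ORX+DHT replicate 1, 2 without ORX+DHT replicate 2, and 0 without ORX+DHT replicate 3). Higher genes made up 58.4% of calls in ORX+DHT against ORX and 49.2% after quantile normalisation. For the few calls against control these shares went from 20% to 33.3% in ORX and from 33.3% to 66.7% in ORX+DHT. For all of these counts and signs, the cause was not tested. Stab2 rests on few reads, 12 to 19 in each control and ORX library.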
